A study of Mus musculus with 8 samples.

Results

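Layer 6 corticothalamic neurons of the D1Tom sort were selected by a count above 0 in at least 3 of 6 marker genes, Syt6, Hs3st4, Tle4, Sulf1, Nxph3 and Zfpm2. A count of 0 was also required for each of Gad1 and Gad2, which mark inhibitory neurons, and Cplx3 and Nxph4, which mark layer 6b. The gate took 509 cells of the 11494 cells of the sort and of the 22876 cells of the series. Foxp2, Drd and Rprm took no part in the gate. Values of the 6 gate markers describe how the cells were chosen and are given without a test.

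Frontal isocortex of mice at postnatal day 7 was profiled by single-cell RNA sequencing, in cells sorted by flow cytometry for red fluorescence of a Drd1a-tdTomato transgene (line 6). This transgene is a bacterial artificial chromosome that reports activity of dopamine D1 receptor regulatory sequence, and every D1Tom animal carried it. Controls were Drd1a-tdTomato; Foxp2 flox/flox mice, in which both Foxp2 alleles are floxed and no Cre is present. The conditional knockouts (cKO) had the same alleles plus Emx1-Cre, and Emx1-Cre acts in the lineage of cortical excitatory neurons and much of the cortical glia, so the deletion is not restricted to layer 6. Control 1, control 2 and cKO 1 were female and cKO 2 was male. Control 1 and cKO 1 were prepared on 1 day (batch 1) and control 2 and cKO 2 on another (batch 2), so each batch held 1 library of each genotype. The labels do not say how many animals went into a library, and p-values measure at most the spread between these libraries. A second sort of the series, by a golli-τ-eGFP transgene (GTE), is used only at the end.

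Corticothalamic neurons sit in layer 6 of the cortex and send axons back to the thalamus, where they adjust the relay of sensory and other signals. Their identity is laid down by transcription factors such as TBR1, SOX5 and FEZF2. FOXP2 is a forkhead transcription factor linked to speech and motor learning, and in the cortex its expression is concentrated in these cells. The dopamine D1 receptor couples to stimulatory G proteins and raises cyclic AMP, and deep layer neurons of the frontal cortex are among the cortical cells that express it. Drd is printed as the count table spells it. Drd1 is not among its names, and what Drd stands for is not given in the labels.

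Where 4 values stand in a row, their order is control 1, control 2, cKO 1, cKO 2. Gated cells numbered 145, 167, 67 and 130. Cells with exactly 3 markers numbered 60, 89, 39 and 88, and cells with all 6 numbered 7, 8, 2 and 3. Just outside the gate, with 2 markers, lay 156, 228, 168 and 259 cells. A further 80, 166, 41 and 132 cells had 3 or more markers but a count of an excluded gene. Median counts per gated cell were 15802, 15054, 13442 and 9895.5, so the cKO cells had fewer counts. Median genes detected per gated cell were 3784, 4004, 3459 and 3591. Cell barcodes shared between any pair of D1Tom libraries numbered 14 to 26 among all cells.

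The gated cells made up 4.52% of control 1 (exact 95% binomial interval 3.83 to 5.30), 6.97% of control 2 (5.99 to 8.07), 2.38% of cKO 1 (1.85 to 3.02) and 4.22% of cKO 2 (3.54 to 4.99). The means were 5.75% ± 1.73 and 3.30% ± 1.30 (SD, n = 2 libraries each). The cKO libraries were the 2 lowest, although cKO 2 and control 1 had overlapping intervals. With 4 or more markers the shares were 2.65%, 3.26%, 0.996% and 1.36%. A count-based gate takes in more cells from deeper libraries, so cells with at least 3000 counts were also thinned to 3000 before gating, which left 2857, 2383, 2481 and 2932 cells. Of these the gate took 2.91%, 2.56%, 0.967% and 1.19%, again with no overlap. Among cells with at least 3 of 9 general excitatory genes, which numbered 874, 1105, 522 and 737, the gated shares were 13.4%, 13.03%, 8.05% and 12.3%. Among those with at least 5000 counts the groups overlapped, at 13.8%, 13.2%, 8.17% and 13.5%. After thinning to 3000 counts the gate took 8.28%, 3.72%, 3.54% and 2.66% of the excitatory cells. There the intervals of control 2 (2.685 to 5.018) and cKO 1 (2.109 to 5.532) overlapped. With at least 2 markers the groups overlapped over all cells, at 9.39%, 16.5%, 8.36% and 12.6%. An exact two-sided permutation test over 2 against 2 libraries cannot go below p = 0.333. A sort by the Drd1a reporter admits cells by that reporter's brightness, and a share also depends on the other cells sorted. The number of such neurons, their brightness and the mix of other cells thus cannot be told apart here.

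**Figure D1:**
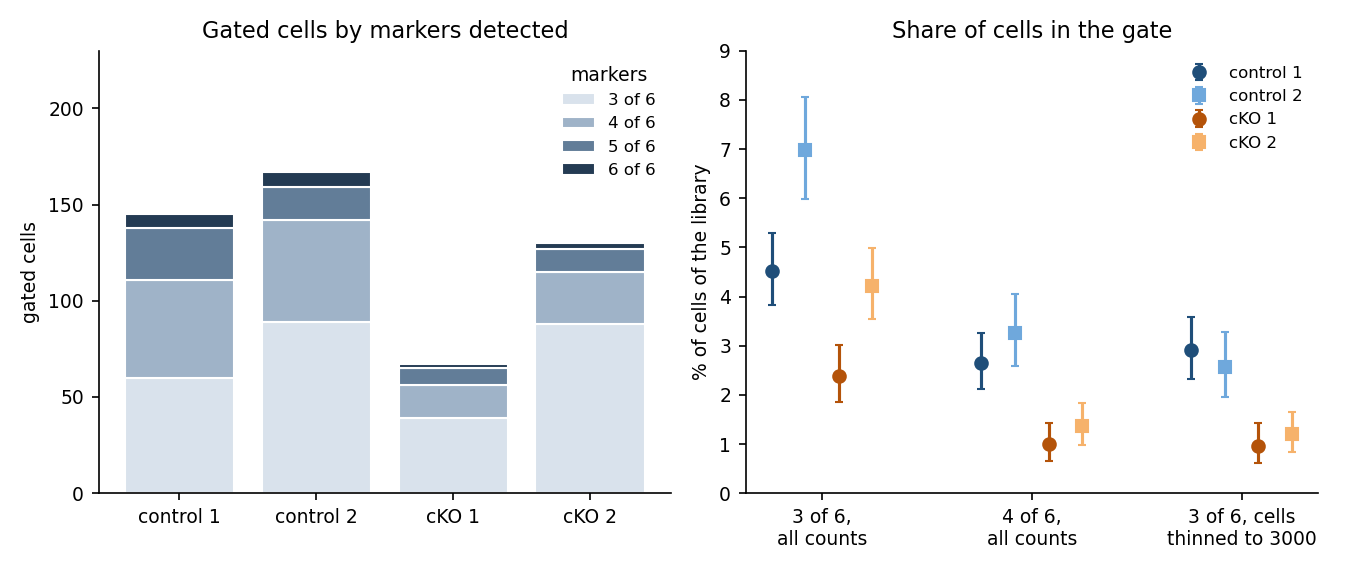
Left, number of gated cells per library, stacked by how many of the 6 gate markers were detected. Right, gated cells as a percentage of all cells of the library under 3 gates, with exact 95% binomial intervals; in all 3 gates both cKO points lie below both control points, from 2.38% and 4.22% against 4.52% and 6.97% in the gate used here.

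The gate markers were examined as a description of the gated cells. Tle4, a corepressor of the Groucho family, was at 375, 249, 263 and 242 counts scaled to 1000000 per sum (CPM) in control 1, control 2, cKO 1 and cKO 2. Hs3st4, a heparan sulfate sulfotransferase, was at 302, 207, 245 and 154 CPM, and the synaptotagmin gene Syt6 at 321, 125, 231 and 99.4 CPM. Nxph3, a secreted ligand of neurexins, was at 127, 69.3, 108 and 72.0 CPM. Zfpm2, a zinc finger cofactor of GATA proteins, was at 62.6, 54.4, 53.6 and 48.0 CPM, and Sulf1, an extracellular sulfatase, at 26.2, 17.4, 38.4 and 23.3 CPM. For 5 of the 6, all but Zfpm2, the groups overlapped. Each of these 5 differed more between the batch means than between the genotype means. Tle4 had a count in 86.6% to 94.5% of the gated cells per library, and Sulf1 in 15.6% to 26.9%.

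The label of the cells was checked on genes outside the gate, in the controls alone and as a description. Foxp2 was at 209 and 143 CPM in the gated control cells and at 9.13 and 19.2 CPM in other excitatory cells, which had at least 3 of the 9 general excitatory genes, under 2 gate markers and no Gad1 or Gad2 count. That is a 12.4-fold ratio of the means, the highest among genes of at least 50 CPM apart from 4 gate markers. Of 3460 genes at that level, 32 (0.925%) were at least 2-fold higher in both controls. The transcription factor genes Tbr1 (255 and 220 CPM) and Fezf2 (226 and 112 CPM) were 2.07-fold and 2.49-fold higher than in other excitatory cells. Bcl11b, a zinc finger factor of deep layer neurons, was 3.84-fold higher and the ETS factor Etv1 5.49-fold higher. The neuronal pentraxin Nptx1 was 9.95-fold higher, the homeobox gene Tshz2 8.05-fold, the kainate receptor subunit gene Grik3 4.03-fold and Ppp1r1b, which encodes the D1 signalling protein DARPP-32, 7.45-fold. The upper layer gene Cux2 was lower, at 9.66 and 41.4 CPM against a mean of 76.1 CPM. Fezf2 and Bcl11b are also layer 5 pyramidal tract genes. The 10 genes of that list summed to 1083 and 825 CPM, against 758 and 686 CPM in other excitatory cells. The 10 layer 6b or subplate genes summed to 71.8 and 106 CPM, against 63.7 and 71.9 CPM, with Cplx3 and Nxph4 at 0. These values do not tell the gated cells from those types. Foxp2 was at 23.1 and 39.4 CPM in layer 5 pyramidal tract and 7.04 and 19.8 CPM in layer 6b or subplate cells. Over 8 cell classes of the 2 control libraries (16 points that share their libraries), the genes whose level on the log2(CPM + 1) scale was most like that of Foxp2 were Fut9 (Pearson's r 0.90), Nptx1 (0.889), Tle4 (0.872), Etv1 (0.862) and Nxph3 (0.854). Tle4 and Nxph3 are gate markers, and the classes are built on the gate, so their likeness follows in part from the rule.

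The gate did not hold excitatory neurons alone. At least 3 of the 9 general excitatory genes were detected in 80.7%, 86.2%, 62.7% and 70.0% of the gated cells. The summed level of 9 astrocyte genes in the gated cells was 2104, 4118, 3241 and 5075 CPM, against 18605, 8669, 10595 and 9185 CPM in cells gated as astrocytes. At least 6 of these 9 genes were detected in 28, 117, 25 and 106 gated cells, which is 19.3%, 70.1%, 37.3% and 81.5%. The 9 oligodendrocyte lineage genes summed to 524, 865, 867 and 815 CPM, with at least 4 of them detected in 16, 57, 15 and 56 gated cells. In other excitatory cells the astrocyte sum was 1810, 2894, 1781 and 4387 CPM, so astrocyte transcripts were also counted outside the gate, and batch 2 was the higher within each genotype. The 6 Cajal-Retzius genes summed to 33.6, 156, 166 and 414 CPM, with the cKO libraries above both controls, and Reln and Ndnf made up most of each sum. At least 3 of these 6 genes were detected in 0, 5, 1 and 9 gated cells, and Trp73, which defines that type, was at 0.460, 3.63, 5.06 and 15.8 CPM. The 16 interneuron genes in the table summed to 90.7, 183, 410 and 229 CPM, with Gad1 and Gad2 at 0 by the gate and most of the cKO 1 value from Npy (323 CPM). The 6 endothelial genes summed to 11.05 to 42.5 CPM and the 7 microglia genes to 7.08 to 63.5 CPM. Astrocyte and Cajal-Retzius sums thus move with genotype or batch, and their part in the comparisons that follow was not tested unless a value is given. Comparisons were therefore repeated on the 394 gated cells with at least 3 general excitatory genes, an alternative added after the data were seen. The Cajal-Retzius sum in those cells was 33.0, 170, 202 and 468 CPM. In the cKO libraries it was thus no lower than in all gated cells. With 4 or more gate markers that sum was 32.7, 71.2, 30.1 and 457 CPM, and the groups overlapped.

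**Figure D2:**
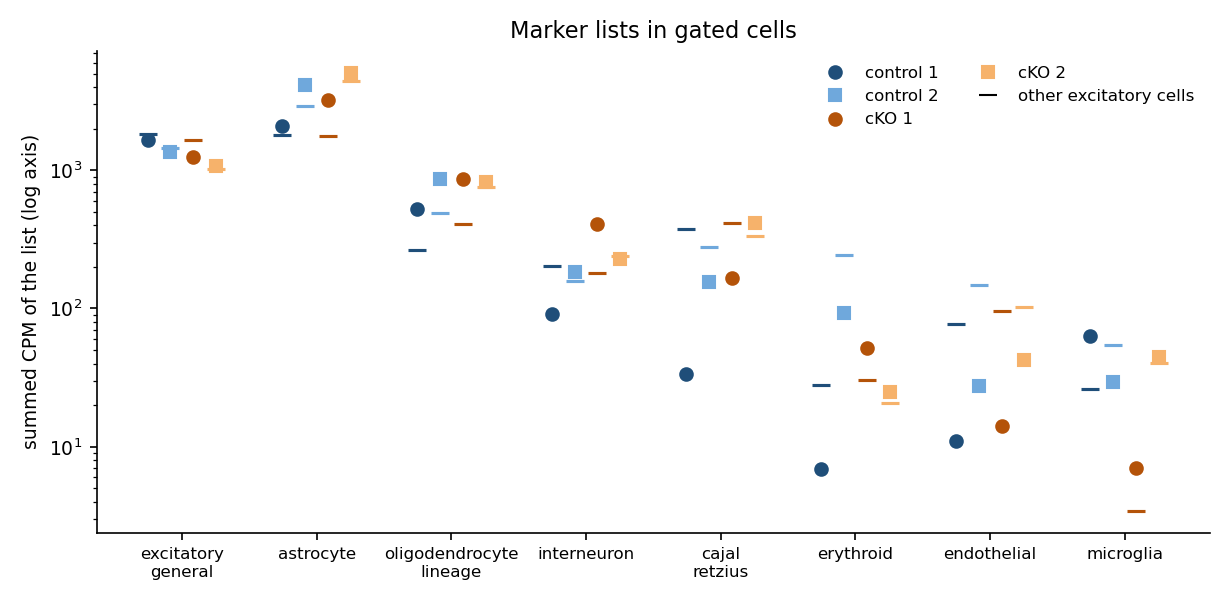
Summed CPM of 8 marker lists (log axis) in the gated cells of each library (points) and in other excitatory cells of the same library (short dashes). The Cajal-Retzius sum in gated cells runs from 33.6 CPM in control 1 to 414 CPM in cKO 2, while in other excitatory cells it lies between 280 and 413 CPM.

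Loss of the targeted gene was examined first. Foxp2 levels were 209, 143, 41.5 and 29.5 CPM (means 176 ± 47.2 and 35.5 ± 8.47, SD, n = 2 libraries each). Its cKO levels were far under either control level, a 4.96-fold difference of the means. The log2 fold change was -2.27 (SE 0.29), and the within-batch ratios were nearly the same, -2.31 in batch 1 and -2.24 in batch 2. Foxp2 had the smallest p of all 10815 genes tested, but it did not pass the threshold over all genes (edgeR adjusted p 0.263). It fell by 2.26 with the batch as a term (edgeR adjusted p 0.000482), by 2.28 with DESeq2 (adjusted p 2.21e-05) and by 2.17 in the gated cells with excitatory genes with the batch term (edgeR adjusted p 2.49e-22). In those excitatory cells without the batch term the edgeR adjusted p was 0.669. With the batch term, 4 libraries leave little residual spread for any single gene. The edgeR p-values given with that term, here and below, therefore lean on a spread pooled over genes. They do not measure a gene's own spread between libraries. The 3′ tags counted here need not come from the deleted part of the gene, and the labels do not give that part, so the remaining count is not a direct reading of recombination.

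Drd, with its values in the same order, was at 200, 157, 102 and 57.6 CPM (means 178 ± 30.1 and 79.9 ± 31.5, SD, n = 2 libraries each). Both cKO libraries were below both controls, with a log2 fold change of -1.14 (SE 0.28, edgeR adjusted p 1.00) and within-batch ratios of -0.96 and -1.43. With the batch term the edgeR adjusted p was 0.0504, and in the gated cells with excitatory genes and that term Drd fell by 0.97 (edgeR adjusted p 1.77e-05). Rprm, a gene of the p53 pathway that is used as a layer 6 marker, was at 680, 338, 293 and 192 CPM (means 509 ± 242 and 242.6 ± 71.6, SD, n = 2). Its lowest control lay just above its highest cKO library, and control 1 was far above the rest. The log2 fold change of Rprm was -1.03 (SE 0.33, edgeR adjusted p 1.00), and -0.48 without control 1. With the batch term its edgeR adjusted p was 0.0504, and with that term in the gated cells with excitatory genes it fell by 0.94 (edgeR adjusted p 5.35e-07).

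Sfxn1, a mitochondrial serine transporter gene, is the protein-coding neighbour of Drd1 on chromosome 13 (GRCm38.p6, RefSeq). Sfxn1 levels were 1445, 1475, 715 and 560 CPM, a log2 fold change of -1.16 (SE 0.26, edgeR adjusted p 1.00). With the batch term it fell by 1.16 (edgeR adjusted p 0.00704). Emx1, a homeobox gene of cortical progenitors and excitatory neurons, was at 46.9, 29.0, 18.2 and 12.3 CPM, a log2 fold change of -1.28 (SE 0.38, edgeR adjusted p 1.00). Both genes were lower in both cKO libraries.

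The held-out genes were then read cell by cell at an equal number of counts. Over each whole library the ratio of values of 2 over values of 1 was 1.69, 0.723, 1.54 and 0.307. Equal counts thus need not mean equal depth between libraries. After thinning each cell to 2000 counts, 31.5% of gated cells in control 1 had a Foxp2 count (exact 95% interval 24.0 to 39.8) and 22.8% in control 2 (16.6 to 29.9). Only 2.99% had one in cKO 1 (0.364 to 10.4) and 7.09% in cKO 2 (3.29 to 13.03), well below both controls. In control endothelial cells, which should lack the gene, 0.870% (1 of 115) had a Foxp2 count, at a median depth of 19790 counts against 15461.5 in the gated controls. Thinned Drd shares were 36.4%, 25.7%, 14.9% and 11.8%, and 0 of 115 control endothelial cells had a Drd count, which allows a share of up to 2.61% by 3 counts of the total (exact 95% upper bound 3.16%). Thinned Rprm shares were 57.3%, 37.1%, 32.8% and 29.9%, with 6.96% in control endothelial cells. The Rprm intervals of control 2 (29.8 to 44.9) and both cKO libraries overlapped. Thinning left out 2 cells of control 1 and 3 of cKO 2. Unthinned, Foxp2 was detected in 69.7%, 60.5%, 22.4% and 23.1% of gated cells, Drd in 71.0%, 68.9%, 43.3% and 37.7%, and Rprm in 84.1%, 81.4%, 59.7% and 66.9%. The unthinned background in endothelial cells of controls and of cKO was 14.8% and 21.2% for Foxp2. For Drd it was 6.96% and 1.92%, and for Rprm 26.1% and 21.2%. The unthinned cKO Foxp2 shares were close to it, but cKO endothelial cells were deeper (median 15198.5 counts against 10882). Thinned to 4000 counts, 6.45% of gated cKO cells and 1.96% of cKO endothelial cells (1 of 51) had a Foxp2 count, with overlapping intervals. Foxp2 in endothelial cells of cKO 1 and cKO 2 was at 7.82 and 11.9 CPM, under the gated cKO levels. The intervals cover counting error only.

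In the controls, Foxp2 in excitatory cells was higher at each further gate marker detected. With no marker Foxp2 was at 8.73, 12.6, 3.72 and 10.2 CPM. With 3 markers it was at 104, 77.6, 14.8 and 14.4 CPM, and with 5 or 6 at 318, 265, 97.7 and 57.7 CPM. At each of 2, 3, 4 and 5 or 6 markers both cKO libraries lay below both controls, so the lower Foxp2 level was also seen between cells matched in marker number. Drd with 5 or 6 markers was at 306, 271, 184 and 111 CPM, again lower in both cKO libraries. Rprm at that marker number was at 888, 352, 342 and 216 CPM, with control 1 far above the rest. Tbr1 was at 393, 401, 443 and 360 CPM there and the groups overlapped. These most strongly marked cells numbered 34, 25, 11 and 14, so the values on the right of the plot rest on few cells.

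**Figure D3:**
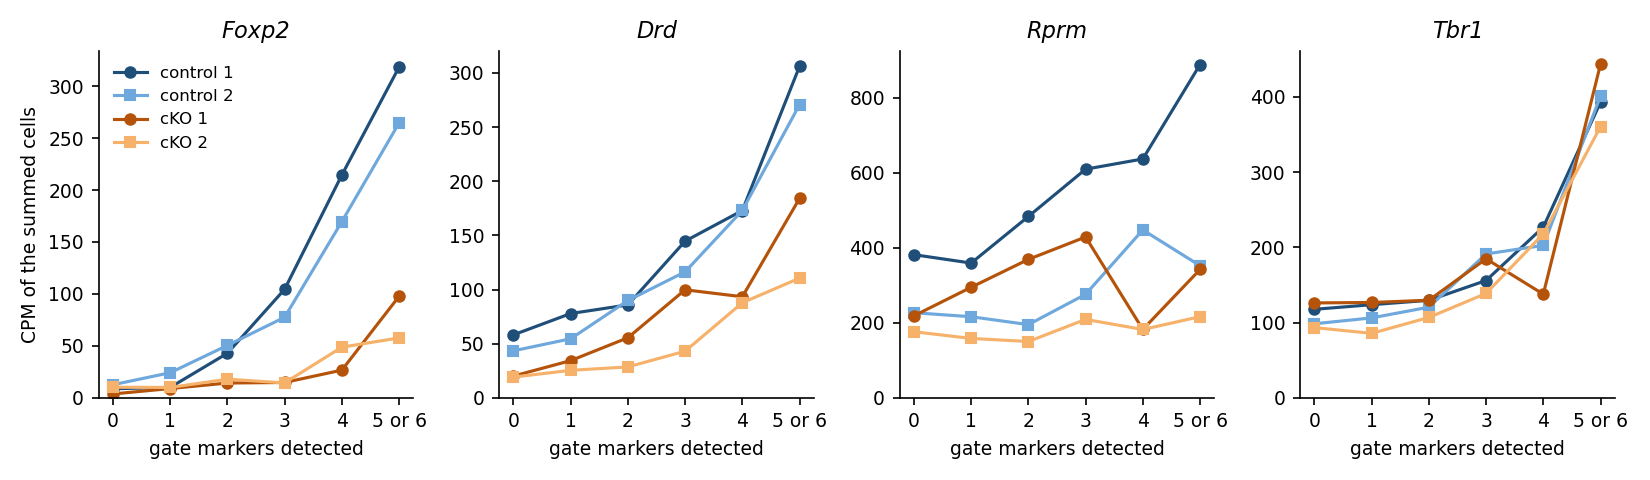
CPM of Foxp2, Drd, Rprm and Tbr1 (y axes) in excitatory cells summed by the number of gate markers detected (x axes), 1 line per library. Foxp2 climbs to 318 and 265 CPM in the controls and to 97.7 and 57.7 CPM in the cKO libraries, while the Tbr1 lines cross.

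Whether these differences were particular to the gated cells was tested by the interaction of class and genotype, with the library as a term. Foxp2 in the 2295 other excitatory cells was at 9.13, 19.2, 5.78 and 9.62 CPM. The Foxp2 difference was larger in the gated cells by -1.46 on the log2 scale (SE 0.55, unadjusted p 0.0209 by edgeR), which did not pass over all genes (edgeR adjusted p 1.00). Against layer 6b or subplate cells the difference of log2 changes was -2.58, against upper layer cells -1.29 and against layer 5 pyramidal tract cells -0.76, each with an edgeR adjusted p of 1.00. Drd in other excitatory cells was at 65.1, 49.8, 24.8 and 21.9 CPM, a log2 change of -1.24, and the interaction was 0.094 (SE 0.26, edgeR adjusted p 1.00). Both cKO libraries were below both controls for Drd in 7 of 8 other classes and for Sfxn1 in 8 of 8. The 8 other classes come from the same 4 libraries and some share cells, so they are not independent of each other. The layer 6b, layer 5 and upper layer classes required no excitatory genes and could hold cells with 2 gate markers. Some classes rest on few counts, such as Drd in endothelial cells with 1, 7, 0 and 1. The Sfxn1 interaction was 0.12 (SE 0.16, edgeR adjusted p 1.00). Rprm in other excitatory cells was at 363, 216, 239 and 166 CPM, which overlapped, and its interaction was -0.53 (SE 0.18, unadjusted p 0.0131, edgeR adjusted p 1.00). Over 12392 genes the interaction called 0 (0.0%), with 281 (2.27%) at an unadjusted p under 0.05.

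**Figure D4:**
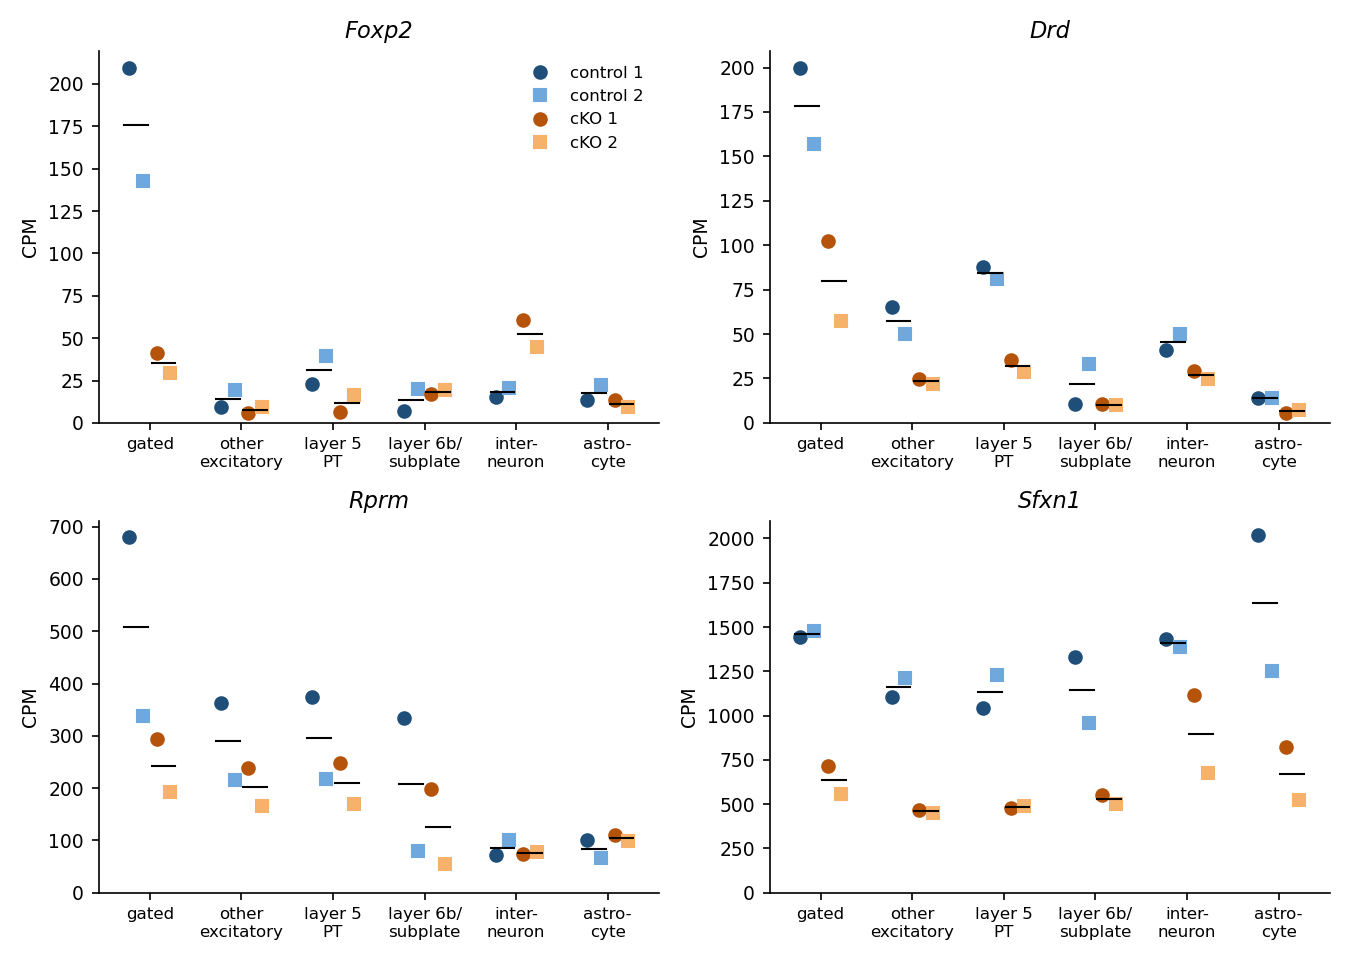
CPM of Foxp2, Drd, Rprm and Sfxn1 (y axes, from 0) in 6 cell classes, 1 point per library, with black lines at the mean of each genotype (PT, pyramidal tract). Foxp2 separates the genotypes most in gated cells (209 and 143 against 41.5 and 29.5 CPM), while Drd and Sfxn1 are lower in both cKO libraries in several classes.

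Of the 5 genes with the smallest interaction p, 4 had a larger cKO to control ratio in gated cells than in other excitatory cells, and Cartpt had a smaller one. Angpt1, a ligand of the TIE2 receptor, was at 8.28, 13.4, 35.4 and 37.7 CPM in gated cells (interaction 2.00, SE 0.39), and the chemokine gene Cxcl12 was at 17.03, 25.0, 69.8 and 61.0 CPM (1.64, SE 0.36). In other excitatory cells Cxcl12 was at 156, 88.1, 130 and 99.1 CPM, so the gated cKO cells were nearer to that level than the gated controls. The haemoglobin genes Hba-a1 (2.88) and Hba-a2 (2.38) overlapped between genotypes in the gated cells, at 3.22, 22.5, 23.3 and 8.92 CPM and at 3.68, 17.4, 13.1 and 5.49 CPM. The neuropeptide gene Cartpt was at 7.82, 6.53, 3.03 and 3.43 CPM (interaction -2.03). None passed, with an edgeR adjusted p of 0.206 for Hba-a1 and 1.00 for Angpt1, Cxcl12, Hba-a2 and Cartpt.

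Other genes of corticothalamic identity were compared next. Of 18 genes on that list 17 were tested, and 0 passed (background 0.0% of all 10815 genes). Both cKO libraries lay below both controls for 5 and above them for 1, where 16.5% of all genes lay below and 10.5% above. The 5 were Foxp2, Drd, Rprm, Sla and Pcsk5. The list's median log2 fold change was -0.24, beside 0.0026 over all genes, and without Foxp2, Drd and Rprm it was -0.19 over 14 genes. Foxp2, Drd and Rprm were the members at an unadjusted p under 0.05 and lower, where 0.666% of all genes were. Bcl11b was at 556, 357, 474 and 287 CPM, and Fezf2 at 226, 112, 202 and 94.6 CPM. Sox5, a SOX factor of deep layers, was at 220, 173, 181 and 143 CPM, and Tbr1 at 255, 220, 222 and 167 CPM. For these 4 transcription factors, chosen after their values were seen, the genotypes overlapped and batch 1 was the higher. Within each batch the cKO library was the lower for all 4, with log2 ratios of -0.16 to -0.28 in batch 1 and -0.24 to -0.39 in batch 2. Ntsr1, the neurotensin receptor gene used to target these neurons, was low, with 17.9, 15.97, 21.2 and 18.5 CPM. Its log2 fold change was 0.27 (edgeR adjusted p 1.00) and turned to -0.38 in cells with at least 2 gate markers. The thyroid hormone binding protein gene Crym was at 80.1, 66.1, 107 and 58.3 CPM. Its log2 fold change of 0.20 (edgeR adjusted p 1.00) also turned there, to -0.096.

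**Figure D5:**
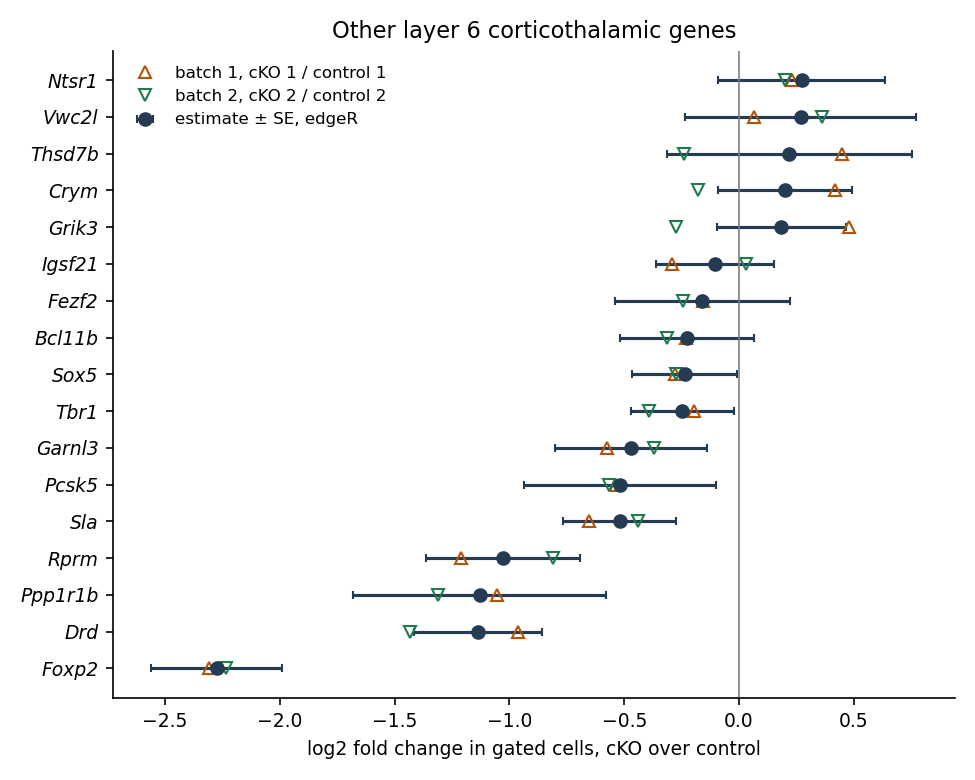
Log2 fold change, cKO over control, of 17 corticothalamic genes in gated cells (x axis, circles with SE, edgeR) and the ratios within each batch (triangles). Foxp2 lies at -2.27, Drd, Ppp1r1b and Rprm near -1, and the others between -0.52 and 0.27.

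The 14 further genes that led in control gated cells over other excitatory cells, gate markers and Foxp2 aside, had a median log2 fold change of -0.23. They were chosen by high levels in these same controls, which by itself tends to put cKO below control. Their changes are therefore a description only. The genotypes overlapped for 12 of the 14, with 2 below and 0 above, where 16.5% of all genes lay below and 10.5% above. Etv1 was at 433, 263, 366 and 209 CPM, Tshz2 at 345, 207, 297 and 141 CPM, and Pcp4, a calmodulin regulator gene, at 1023, 417, 847 and 324 CPM. In all 3 the batch 1 libraries were the higher ones, and within each batch the cKO library was the lower. Nptx1 was at 82.8, 74.8, 69.8 and 61.7 CPM, with both cKO libraries slightly lower (log2 -0.22, SE 0.24, edgeR adjusted p 1.00), but its direction turned when every cell had equal weight (0.16). Grik3 was at 91.1, 84.9, 127 and 69.9 CPM. Ppp1r1b was at 205, 73.0, 98.1 and 28.8 CPM, so the groups overlapped although within each batch the cKO library was lower (log2 ratios -1.05 and -1.31). Its log2 fold change was -1.13 (SE 0.55, edgeR adjusted p 1.00), but -0.26 without control 1, -1.69 without control 2, -2.13 without cKO 1 and -0.52 without cKO 2. In the gated cells with excitatory genes and the batch term Ppp1r1b fell by 0.95 (edgeR adjusted p 0.000398).

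Over all genes in the gated cells edgeR called 0 of 10815 (0.0%), with 175 (1.62%) at an unadjusted p under 0.05, of which 103 (0.952%) were higher and 72 (0.666%) lower. DESeq2 called 3, Foxp2, mt-Atp8 and Sfxn1, with 77 at an unadjusted p under 0.05. Counts of mt-Atp8 in gated cells came from cKO 2 alone. With the batch as a term edgeR called 4 (0.037%), mt-Co2, Foxp2, Reln and Sfxn1. Reln, the extracellular glycoprotein that Cajal-Retzius cells secrete, was at 21.6, 98.4, 120 and 273 CPM and rose by 1.89 on the log2 scale with the batch term (edgeR adjusted p 0.00704). Ndnf, the other tested gene of the Cajal-Retzius list, was at 8.28, 49.0, 38.4 and 110 CPM, a log2 fold change of 1.44 (SE 0.71, edgeR adjusted p 1.00). Reln was named because it was called in that alternative.

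In the 394 gated cells with excitatory genes and with the batch term edgeR called 50 of 10511 genes (0.476%), 35 higher (0.333%) and 15 lower (0.143%). Without that term it called 0, with 105 at an unadjusted p under 0.05. The 50 calls thus rest on the pooled spread described for Foxp2. Among the lower genes were Foxp2, Drd, Rprm, Ppp1r1b, Sfxn1 and Rasl10a, and among the higher genes Reln, Ndnf, Cxcl12, Angpt1 and the astrocyte genes Slc1a3, Slc1a2 and Gja1. Slc1a3, a glutamate transporter gene, was at 240, 929, 637 and 1193 CPM in those cells. These 3 astrocyte genes were higher in batch 2 and, within each batch, higher in the cKO library. The summed astrocyte level in those cells was 1545, 3410, 2175 and 4432 CPM. Its part in these calls was not tested.

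Further genes were taken by the smallest p among genes of at least 20 CPM whose libraries did not overlap between genotypes. None passed edgeR's adjusted threshold in all gated cells. With the batch term in the gated cells with excitatory genes, Cxcl12, Angpt1, Mt2, Id4, Camk2d, Paqr8, Rasl10a and Ppil4 passed, with edgeR adjusted p from 2.59e-09 (Cxcl12) to 0.0352 (Paqr8). Higher in both cKO libraries were Cxcl12 (log2 1.66, SE 0.30) and Angpt1 (1.78, SE 0.38). The metallothionein gene Mt2 was at 42.3, 78.0, 138 and 134 CPM (1.21), and Id4, an inhibitor of DNA binding, at 46.5, 91.8, 175 and 137 CPM (1.19). The calcium-dependent kinase gene Camk2d was at 50.2, 78.8, 115 and 122 CPM (0.92) and the progestin receptor family gene Paqr8 at 23.9, 56.3, 83.9 and 100 CPM (1.23). Lower in both were the adrenergic receptor gene Adra1b (49.2, 35.6, 24.3 and 16.5 CPM, log2 -1.03) and the RAS-like gene Rasl10a (117, 62.4, 52.6 and 32.2 CPM, -1.05). The galactosyltransferase gene B4galt5 was at 98.9, 74.8, 50.6 and 41.1 CPM (-0.88), and the membrane protease gene Mmp17 at 66.3, 58.8, 40.5 and 26.1 CPM (-0.89). Ppil4 (-0.97), Gpatch11 (-1.10) and Yrdc (-0.83) lay lower as well. The rule also gave an X-linked gene and a gene model without a symbol, both lower, which are counted only.

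Gene lists of neuronal function were counted in the same fit, and no member of any of them passed. Of 17 D1 signalling genes tested, Drd was the only one at an unadjusted p under 0.05, 2 lay below both controls in both cKO libraries and 1 above, and the median was -0.098. Of 6 tested genes reported elsewhere as FOXP2 targets, 3 lay below and 0 above (median -0.36). Over all genes 16.5% lay below and 10.5% above, 1.62% had an unadjusted edgeR p under 0.05, and the median was 0.0026. Neither list's counts are read as a result about that list. Among the FOXP2 target genes the receptor tyrosine kinase gene Met was at 24.4, 31.2, 15.2 and 21.3 CPM (log2 -0.54). The neurexin family gene Cntnap2 was at 41.4, 62.4, 40.5 and 82.3 CPM (0.32). Foxp1, which can pair with FOXP2, was at 399, 402, 335 and 274 CPM, lower in both cKO libraries (log2 -0.36, SE 0.22, edgeR adjusted p 1.00).

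Of 21 glutamate receptor genes 6 lay below and 4 above, with a median of 0.019. Grin2a, an NMDA receptor subunit gene, was at 68.1, 50.5, 27.3 and 37.0 CPM (log2 -0.80), and the AMPA receptor subunit gene Gria1 at 53.8, 65.7, 95.1 and 80.9 CPM (0.59). Of 36 axon guidance genes 2 lay below and 2 above (median -0.023), with the semaphorin receptor gene Plxnc1 at 25.8, 28.0, 48.5 and 40.5 CPM (0.76). Of 11 neurexin and partner genes 4 lay below and 0 above (median -0.097), with the synaptic adhesion gene Lrrtm1 at 51.6, 32.3, 23.3 and 20.6 CPM (-0.88). Of 28 potassium channel genes 3 lay below and 0 above (median -0.012), with the channel partner gene Kcnip2 at 58.0, 36.7, 33.4 and 28.8 CPM (-0.55). For 21 cadherin and protocadherin genes the counts were 3 and 0, for 22 release machinery genes 4 and 0, for 11 GABA-A receptor genes 3 and 0, and for 15 heparan sulfate enzyme genes 4 and 1. Over all genes 16.5% lay below and 10.5% above, and no count in these lists is read as a result about its list.

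The lists of other neurons and further lists were counted alike, beside 16.5% of all genes below, 10.5% above and 1.62% at an unadjusted edgeR p under 0.05. No count below is read as a result about its list. Of 9 general excitatory genes 3 lay below and 0 above (median -0.31), and Emx1 and Neurod1, a bHLH factor gene (15.2, 15.97, 4.04 and 8.23 CPM, log2 -1.22), were at an unadjusted p under 0.05. The upper layer list had 4 of 11 genes below and 0 above (median -0.27). Of 6 interneuron genes tested 1 lay below and 2 above (median 1.04), with the homeobox gene Dlx1 at 1.38, 7.62, 8.09 and 28.1 CPM (2.05). Of 9 astrocyte genes 1 lay below and 1 above (median 0.70), and the water channel gene Aqp4 was at 73.2, 310, 348 and 372 CPM (0.94). Of 12 mitochondrially encoded genes 1 lay below and 5 above, and the summed level of the 13 such genes in the table was 32089, 41565, 40267 and 47738 CPM. The 14 early response genes of the dissociation list summed to 480, 239, 274 and 206 CPM, highest in control 1.

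The same gate was applied to the GTE sort, which the rule did not use and whose median counts per cell were 1085.5 to 2982 per library, against 7198 to 12815 in the D1Tom sort. Its mice were golli-τ-eGFP; Foxp2 flox/flox, with Emx1-Cre added in cKO, as far as the labels say. The labels give male for all libraries but cKO 2, while the batch note in their protocol gives other sexes, so both sex and batch are unsure there. The gate took 0, 25, 4 and 1 cells in the same order of libraries, too few for a test. In the 25 control 2 cells Foxp2 was at 432 CPM and detected in 13 cells, Drd at 73.8 CPM and Rprm at 870 CPM. In the 4 cKO 1 cells Foxp2 was at 57.2 CPM, from 1 cell.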

How the data were processed

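The authors deposited, per the labels, whole-number counts per gene and cell, made from 10x Genomics 3′ libraries. The submitters' processing notes name Cell Ranger 2.1.1, UMI-tools 0.5.4, STAR 2.5.2b, featureCounts of Subread 1.6.2 and the builds mm10 and GRCm38.p6. The ratio of matrix values equal to 2 over those equal to 1 was 1.69, 0.723, 1.54 and 0.307 (control 1, control 2, cKO 1, cKO 2), so no Poisson interval was placed on sums. The D1Tom libraries held 2395 to 3206 cells and 27323298 to 36379194 counts.

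Counts of gated cells were summed per library and tested with edgeR 4.0.16 (quasi-likelihood, TMM, filterByExpr, Benjamini-Hochberg at 0.05 over all genes), 2 libraries against 2. Gated sums held 988871 to 2755087 counts. CPM is a gene's count scaled to a sum of 1000000, an SE is on the log2 scale, and cells were never used as replicates. The script was tested on simulated data. Doublets were kept, and an alternative left out the highest Scrublet scores. Other classes were gated alike: 0 for Gad1 and Gad2 and at least 2 or 3 class markers.

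The members, lists and tests were chosen with earlier results of these data known. Genes are named by these rules: the held-out genes and gate markers, the smallest p among non-overlapping genes of at least 20 CPM, up to 2 genes per list and direction, the leading control genes, the 5 smallest interaction p and the 5 most like Foxp2. Sex-linked and mitochondrial genes are counted, or named as called, without values of single genes, and a few genes that the rules gave are not reported here. The labels give same-numbered libraries a shared batch, so numbers pair the libraries. Their deviations from the group means correlated at 0.404 over 10815 genes.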

Additional observations from a re-analysis of the deposited data

Results flagged for a closer look

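The Foxp2 difference between genotypes had opposite directions in gated and interneuron cells. Interneuron cells were at 15.5 and 20.5 CPM for the controls and 60.5 and 44.7 CPM for the cKO libraries, higher in both cKO libraries, while gated cells were lower in both. The difference of the log2 fold changes was -3.805 (SE 0.33, edgeR interaction adjusted p 0.00572). That fit has each library as a term, so its p-value also leans on a spread pooled over genes. Neither change passed within its own class. The log2 fold change was 1.54 in interneuron cells (SE 0.27, edgeR adjusted p 0.699) and -2.27 in gated cells (edgeR adjusted p 0.263). The interneuron class was added after the data were seen. Its 1218 cells had at least 5 interneuron genes, Gad1 or Gad2 among them, and under 3 gate markers. For Drd the same difference was -0.41 (edgeR adjusted p 0.839).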

How the results depend on the processing

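The number of genes called in gated cells was 0 and became 4 with the replicate block, 3 with DESeq2, 26 with no filter on low counts, 2 with at least 2 of 6 markers, and 50 with the block in gated excitatory cells. The block fits lean on a spread pooled over genes, as said for Foxp2. The 26 calls with no filter included the Y-linked genes Ddx3y, Eif2s3y and Kdm5d, and cKO 2 was the only male library. Leaving out 1 library gave 0 to 6 calls: 3 without control 1, 0 without control 2, 4 without cKO 1 and 6 without cKO 2. The log2 fold change of Foxp2 passed at -2.26 with the replicate block, -2.28 with DESeq2, -2.29 with no filter and -2.17 with the block in gated excitatory cells, and ranged from -2.51 to -2.01 when 1 library was left out, where it passed in all but the fit without control 2. Drd passed with no filter (-1.16) and, with the block in gated excitatory cells, at -0.97, where Rprm passed at -0.94. Without 1 library Drd ranged from -1.51 to -0.84 and Rprm from -1.44 to -0.48. The replicate block, in which same-numbered libraries are paired, changed no other call among Foxp2, Drd and Rprm. A fit without a library assumes that the lone one varies like the others. Without cKO 1 the lone cKO library is the male one, and the calls of that fit included the Y-linked genes Ddx3y and Eif2s3y.

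Interaction calls rose from 0 to 15 with no filter, 1 in gated excitatory cells, 3 against interneuron cells and 0 to 21 without 1 library (0 without control 1, 2 without control 2, 12 without cKO 1 and 21 without cKO 2). The Foxp2 interaction passed with no filter (-1.46) and against interneuron cells (-3.81), and ranged from -2.33 to -0.71 without 1 library, passing without cKO 1 (-2.10). The Drd interaction turned to -0.25, -0.027 and -0.41 against upper layer, layer 6b and interneuron cells and ranged from -0.30 to 0.39 without 1 library. The Sfxn1 interaction turned to -0.087 against layer 6b and -0.48 against interneuron cells, and ranged from -0.078 to 0.27, and that of Emx1 ranged from -0.83 to 0.14.

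Differences in the thinned share of gated cells were -22.1 points for Foxp2 at 2000 counts, -13.2 at 1000, -38.2 at 4000 and -42.3 unthinned, and for Drd -17.7, -9.15 at 1000 and -29.5 unthinned. Ntsr1 turned with equal cell weights (-0.25) and at least 2 markers (-0.38), as did Crym (-0.096) and Grik3 (-0.072) with 2 markers, Nptx1 with equal weights (0.16), and Met (0.067) with the gate on thinned cells. Without 1 library the ranges crossed 0 for Crym (-0.20 to 0.52), Cntnap2 (-0.41 to 0.77), Bcl11b (-0.54 to 0.086), Grik3 (-0.21 to 0.50), Etv1 (-0.61 to 0.12), Tshz2 (-0.84 to 0.082) and Pcp4 (-1.02 to 0.46). The causes were not tested. The gated excitatory and interneuron alternatives were added after the data were seen. The 2 libraries a group and the 67 cells of cKO 1 limit the precision.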
